A study of Mus musculus with 12 samples.

Results

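The 10 genes described here encode heat shock chaperones and their helpers, and they were taken by name from the table of gene expression: Hspa1a, Hspa1b, Hspa8, Hspa5, Hsph1, Dnajb1, Bag3, Hsp90aa1, Hspd1 and Hspb1. They are 10 of the 24340 rows of the table and 10 of the 18509 rows that were above 0 in at least 1 library, so no member was lost to a filter. Poly(A) RNA was sequenced from both retinas of 6 mice of the p16‐3MR strain, aged 12 to 16 weeks. In each mouse the intraocular pressure (IOP) of 1 eye was raised to 85 to 90 mm Hg for 60 minutes, and the other eye was the control. All 12 retinas carried the transgene and were collected on day 3. Mice 3, 4 and 6 had sham injections of PBS, which gave the control and the IOP groups, and mice 1, 2 and 5 had ganciclovir (GCV, 25 mg/kg once a day), which gave the control GCV and the IOP GCV groups, with 3 retinas in each of the 4 groups. The transgene places a fusion of Renilla luciferase, a red fluorescent protein and the thymidine kinase of herpes simplex virus under the p16Ink4a regulatory region, and GCV is toxic to cells that make this kinase. No retina without the transgene was among the libraries, so an action of GCV that does not need it cannot be told apart from removal of p16Ink4a‐expressing cells.

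Heat shock proteins bind unfolded or misfolded proteins and either help them to fold or pass them on for degradation. The Hsp70 proteins (HSPA1A, HSPA1B and HSPA8 in the cytosol, HSPA5 in the endoplasmic reticulum) hold a client in a cycle driven by ATP. J-domain proteins such as DNAJB1 start this cycle, and nucleotide exchange factors such as HSPH1 and BAG3 end it. HSP90AA1 acts on clients that are nearly folded, HSPD1 folds proteins in the mitochondrial matrix, and HSPB1 is a small heat shock protein that holds unfolded proteins without ATP and binds the cytoskeleton. The transcription factor HSF1 induces many of these genes after heat or other damage to proteins by binding inverted repeats of the letters GAA upstream of them, whereas HSPA5 (BiP) is the classic target of the unfolded protein response. In the retina, HSPB1 is known from ganglion cells and glia after injury and from the lens.

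Because shared control by HSF1 is the reason these genes are usually read together, the bases before their start sites are shown first. Windows of 300 bases, 250 before and 50 after the start site, were taken from a set of RefSeq promoter windows on GRCm38.p6. The set used held 8 of the 10 members and had no window for Hspa8 or Hsp90aa1. They were searched on both strands for the inverted pair GAANNTTC or TTCNNGAA and for the ER stress element, CCAAT and CCACG with 9 bases between them. The 150 bases before the start site are printed for the members that results below turn on, 5′ to 3′ on the strand of the gene, with the matched letters in capitals. They cover chr5:135887769-135887918, plus strand, for Hspb1; chr7:128523433-128523582, plus strand, for Bag3; chr17:34972157-34972306, minus strand, for Hspa1a; chr17:34959239-34959388, minus strand, for Hspa1b; and chr2:34771940-34772089, plus strand, for Hspa5.
Hspb1: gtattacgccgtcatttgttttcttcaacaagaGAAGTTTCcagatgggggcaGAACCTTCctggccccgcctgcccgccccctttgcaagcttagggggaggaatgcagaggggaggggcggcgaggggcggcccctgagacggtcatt
Bag3: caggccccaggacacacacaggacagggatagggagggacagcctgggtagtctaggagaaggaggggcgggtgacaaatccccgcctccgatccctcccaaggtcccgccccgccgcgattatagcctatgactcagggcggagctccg
Hspa1a: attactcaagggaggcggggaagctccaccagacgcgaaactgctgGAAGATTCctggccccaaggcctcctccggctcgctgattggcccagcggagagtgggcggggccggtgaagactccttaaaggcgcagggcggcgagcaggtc
Hspa1b: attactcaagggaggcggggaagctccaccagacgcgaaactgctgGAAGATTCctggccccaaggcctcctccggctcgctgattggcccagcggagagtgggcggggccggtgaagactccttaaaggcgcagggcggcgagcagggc
Hspa5: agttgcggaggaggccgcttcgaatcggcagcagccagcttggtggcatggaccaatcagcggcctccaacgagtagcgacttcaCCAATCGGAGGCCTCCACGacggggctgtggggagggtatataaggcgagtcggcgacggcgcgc

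Hspb1 held the inverted pair at -117 and at -97, counted to its first base from the start site. Hspa1a and Hspa1b held it once each, at -104, and their 150 bases were the same at 149 positions. Bag3 had no pair in the bases shown and 1 at 42 after the start. Hsph1, for which the table gives overlapping windows for its start sites, held 3 in the first of them, at -33, 36 and 41. In Hspd1 a pair was found only in its second window, where 3 overlapping matches began at -144, -139 and -134, and Dnajb1 had none in either window. Of all 32851 promoter windows, 15.1% held at least 1 pair and 1.96% held 2 or more. Hspa5 had no such pair but held the ER stress element at -65, which 0.119% of all windows held. These matches describe letters, and binding of a factor was not measured.

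Levels in retinas without pressure elevation came first. FPKM values (fragments scaled for transcript length and for the size of the library) are given per length, so that genes can be set side by side. In the 6 control retinas the highest members were Hspa8 at 176 ± 35.3 FPKM (SD, n = 6), Hsp90aa1 at 142 ± 9.9 FPKM and Hspa5 at 112 ± 9.95 FPKM, which ranked 320, 419 and 570 among all rows. The ranges of Hspa8 and Hsp90aa1 overlapped, and so did not separate them. Within a retina, Hspa8 was the lower in the control of mouse 3 (141.3 against 149.8 FPKM) and the higher in every other control. The lowest Hsp90aa1 value of 130.4 FPKM was above the highest Hspa5 value of 129.8 FPKM by less than 1 FPKM.

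A middle group followed, in which Hsph1 (22.0 ± 2.41 FPKM), Hspd1 (20.6 ± 1.21 FPKM), Dnajb1 (20.6 ± 1.2 FPKM) and Hspa1a (16.8 ± 2.48 FPKM) each overlapped with the next. Dnajb1 was nevertheless above Hspa1a within every control retina. Hspa1b stood at 11.9 ± 0.967 FPKM, below every control value of Hspa1a, although reads can be split between these near-identical genes, as described below. Lowest were Bag3 at 3.18 ± 0.705 FPKM and Hspb1 at 2.26 ± 1.28 FPKM, with overlapping ranges. Thus the stress-inducible Hsp70 genes were measured well above 0 in control retinas, and the 2 lowest members were the small heat shock protein gene and the co-chaperone gene.

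**Figure D1:**
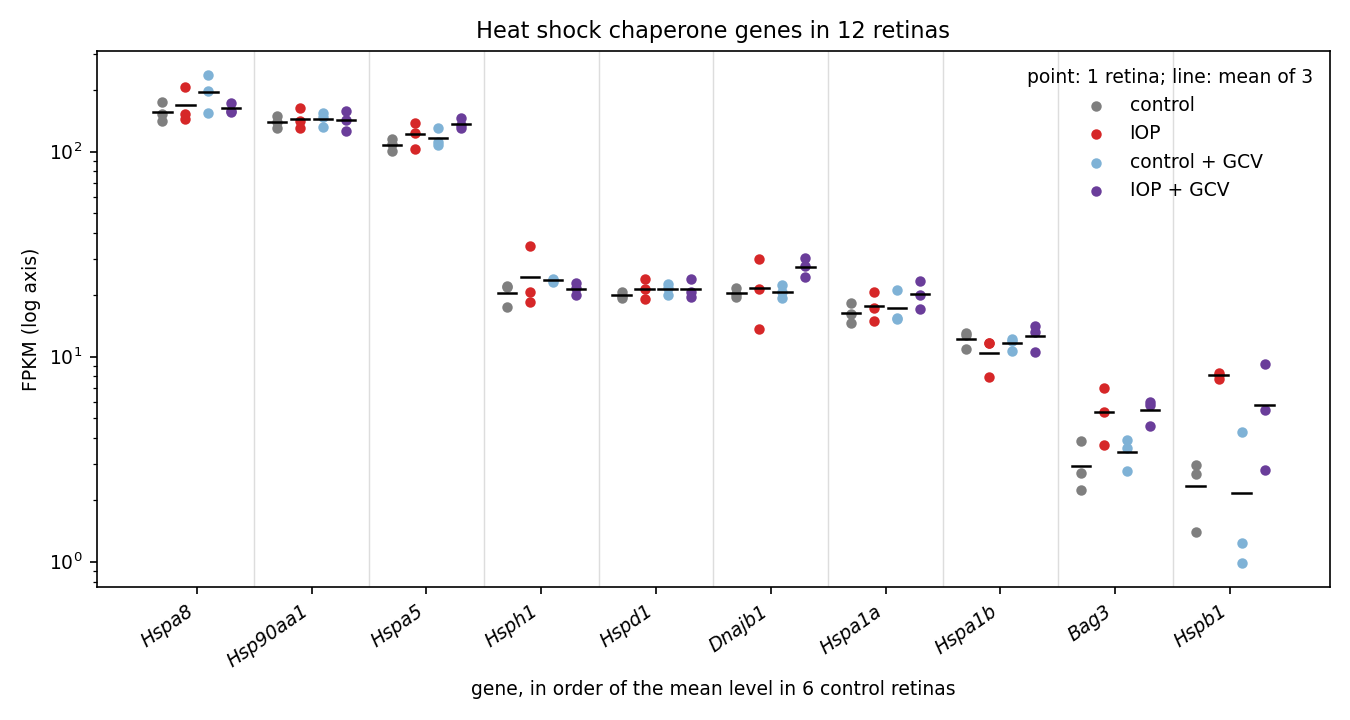
Expression of the 10 genes in FPKM on a log axis, by group, with 1 point for each retina and a line at the mean of 3. The genes run from Hspa8, at 176 FPKM in control retinas, to Hspb1, at 2.26 FPKM, and the groups stand apart most at the right, where Bag3 and Hspb1 were higher after IOP elevation.

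Over all 12 retinas the highest value was 9.32 times the lowest for Hspb1 and 3.17 times for Bag3. For the other 8 members this ratio lay between 1.26 (Hspd1) and 2.2 (Dnajb1). The IOP retina of mouse 6 stood apart in depth, with an estimated 4010000 fragments against 6820000 to 9040000 in the other 11 libraries, and with 14844 genes above 0 against 16044 to 16593. It held the highest value of 12 for Hsp90aa1 and Hsph1 and the lowest for Dnajb1. The estimated number of fragments behind a value was 5.1 to 56.8 for Hspb1, 41.1 to 133 for Bag3 and at least 122 for every other member, so the values of Hspb1 are the least precise.

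IOP elevation was then compared with the control eyes, without and with GCV and as the mean of both effects, by limma on log2(FPKM + 1), with Benjamini-Hochberg adjustment over all 18509 genes and a call at 0.05. Hspb1 and Bag3 were higher in the IOP‐treated eye of every mouse and passed the test over the mean of both effects, Hspb1 by 2.48-fold and Bag3 by 1.53-fold. With the mouse as a block, which pairs the eyes, Hspb1 was called and Bag3 was not (limma adjusted p = 0.0117 and 0.0826), in a fit that called 7.3% of all genes. No member passed in either treatment alone, where 3 retinas stood against 3, and the 2 of 10 members with an unadjusted limma p under 0.05 in each, Hspb1 and Bag3, stand against 18.9% of all genes without GCV and 19.2% with GCV. The Hsp70 genes Hspa1a, Hspa1b and Hspa8, the J-domain gene Dnajb1, the exchange factor gene Hsph1, Hsp90aa1 and Hspd1 gave no call in any comparison, and neither did Hspa5. Of all genes tested, 1.65% were called without GCV, 1.8% with GCV and 12.2% over the mean of both effects, 6.76% as higher. The 2 called members, both higher, are to be read against these shares.

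**Figure D2:**
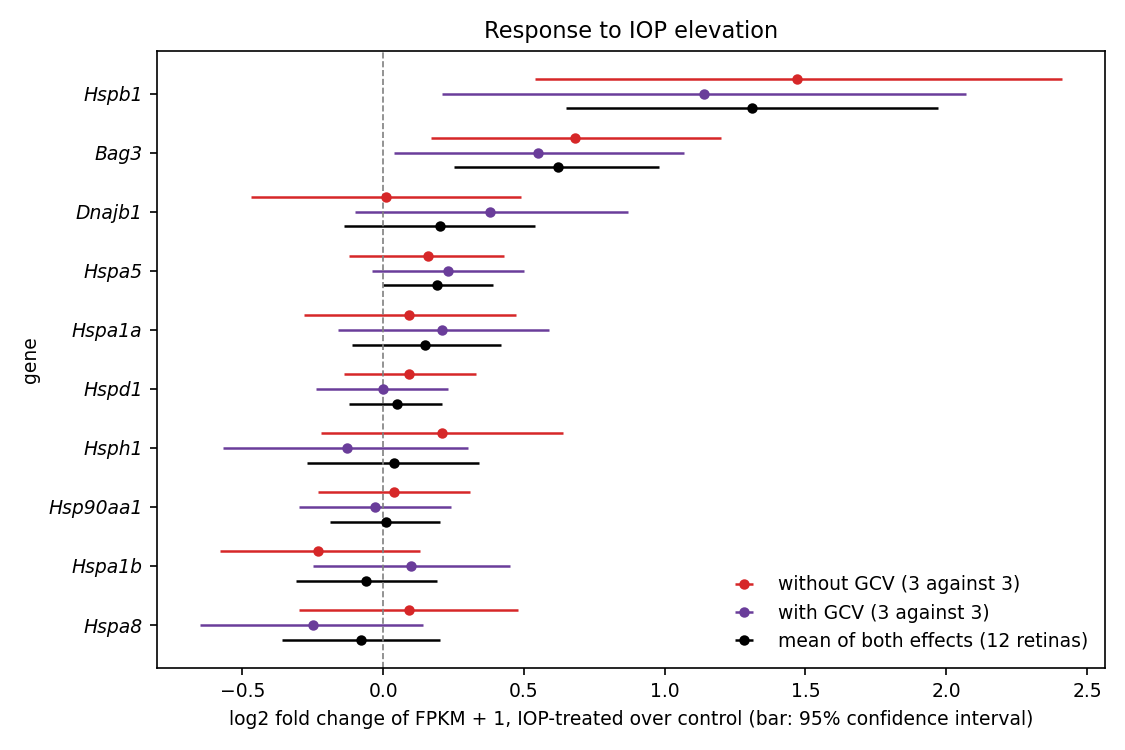
Log2 fold change of FPKM + 1, IOP‐treated over control, for the 10 genes without GCV, with GCV and as the mean of both effects; points are limma estimates and bars are 95% confidence intervals. The points of the mean effect lie farthest from 0 for Hspb1 (1.31) and Bag3 (0.62), the bar of Hspa5 (0.19) begins at 0.00, and the points of the genes other than Hspb1 and Bag3 lie between -0.08 and 0.20.

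Hspb1, the small heat shock protein, stood at 1.40, 2.68 and 2.96 FPKM in the control retinas of mice 3, 4 and 6 and at 8.17, 7.75 and 8.35 FPKM in their IOP‐treated retinas. With GCV, it was at 4.29, 1.24 and 0.988 FPKM in the control retinas of mice 1, 2 and 5 and at 9.21, 5.50 and 2.80 FPKM in their IOP‐treated retinas. Without GCV the groups did not overlap, while with GCV the control retina of mouse 1 was above the IOP‐treated retina of mouse 5. Within a mouse the ratio of the eyes lay between 2.15 (mouse 1) and 5.83 (mouse 3).

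Over the mean of both effects Hspb1 rose by 1.31 on the log2 scale (SE 0.30, 95% confidence interval 0.65 to 1.97, limma adjusted p = 0.0234). With the mouse as a block the adjusted p was 0.0117 with an interval of 0.92 to 1.69. The difference was 1.47 (interval 0.54 to 2.41, limma adjusted p = 0.129) without GCV and 1.14 (interval 0.21 to 2.07, limma adjusted p = 0.181) with GCV. The scale of FPKM + 1 understates the change of a gene this low, as the ratios within mice show. When 1 library at a time was left out, Hspb1 stayed past the threshold in 8 of 12 fits, with log2 differences of 1.14 to 1.53 and adjusted p of 0.011 to 0.0635, and missed it without the control retina of mouse 3 or 4 or the control GCV retina of mouse 2 or 5. With the mouse as a block and 1 mouse left out, Hspb1 was called in 6 of 6 fits (limma adjusted p 0.0274 to 0.0459). These fits called 1.35% to 10.3% of all genes.

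Markers of other cells moved with IOP elevation in the same libraries. The summed FPKM of 7 reactive glia genes (Gfap, Vim, Serpina3n, Lcn2, Cd44, Stat3 and Edn2) ranged from 115 to 240 in the 6 control retinas and from 654 to 1820 in the 6 IOP‐treated retinas, and all 7 were called higher. The summed FPKM of 17 lens genes ranged from 9.09 to 7521 in control and from 122 to 7445 in IOP‐treated retinas, with 10 of the 16 that were tested called higher. In mouse 3 this sum was 9.09 in the control and 122 in the IOP‐treated retina, where Hspb1 was at 1.40 and 8.17 FPKM. In mouse 1 the lens sum was 7521 in the control retina, the highest of the controls for Hspb1, and 7445 in the IOP‐treated retina. There Hspb1 was at 4.29 and 9.21 FPKM.

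Of the 8 retinal ganglion cell markers, 7 were called lower (1 with the mouse as a block), and their sum ranged from 872 to 1777 FPKM in control and from 206 to 965 FPKM in IOP‐treated retinas. All 3 amacrine cell markers were called lower, also with the block, and their sum ranged from 109 to 150 FPKM in control and from 38.1 to 104 FPKM in IOP‐treated retinas. Of 7 microglia markers 5 were called higher, of 9 leukocyte markers 7, and of 9 immediate early genes 8. The rod markers, which define the tissue, summed to 37986 to 54636 FPKM in control and to 29432 to 46610 FPKM in IOP‐treated retinas. None of them was at 0 in any library, and none was called. All 4 cone and all 4 bipolar cell markers had negative differences, and 1 cone marker was called lower, also with the block. The part of these cells, of lens tissue or of early response genes in the values of any member was not tested. In RNA from whole retinas, more cells that express a gene and more RNA per cell cannot be told apart.

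The genes most like Hspb1 in pattern over the 12 libraries, among 9287 genes whose mean reached 5 FPKM, were Mavs (Pearson's r of log2 values 0.851), Mtcl1 (0.842) and the lens crystallin gene Crygc (0.815). These are descriptions over libraries that share 6 mice and the IOP contrast.

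Bag3, which links Hsp70 and small heat shock proteins to autophagy, stood at 2.23, 2.71 and 3.87 FPKM in the control retinas of mice 3, 4 and 6 and at 7.06, 3.72 and 5.34 FPKM in their IOP‐treated retinas. With GCV it stood at 3.60, 3.91 and 2.76 FPKM in control and at 5.81, 4.61 and 6.01 FPKM in IOP‐treated retinas of mice 1, 2 and 5. The groups overlapped without GCV, through the control retina of mouse 6 and the IOP‐treated retina of mouse 4, and did not overlap with GCV. The ratio within a mouse lay between 1.18 (mouse 2) and 3.17 (mouse 3).

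Over the mean of both effects Bag3 rose by 0.62 on the log2 scale (SE 0.16, interval 0.25 to 0.98, limma adjusted p = 0.0387). With the mouse as a block the adjusted p was 0.0826, which ended the call. The difference was 0.68 without GCV (limma adjusted p = 0.188) and 0.55 with GCV (limma adjusted p = 0.229). Leaving out 1 library at a time kept the call in 3 of 12 fits, those without the control retina of mouse 6, the IOP retina of mouse 4 or the IOP GCV retina of mouse 2 (adjusted p 0.00847 to 0.0914 over the 12). With the mouse as a block and 1 mouse left out the call held in 0 of 6 (0.0931 to 0.234), in fits that called 1.35% to 10.3% of all genes. Without GCV, the difference of Bag3 was 0.88 and called when the IOP retina of mouse 4 was left out (limma adjusted p = 0.0323), in a fit that called 13.5% of all genes against 1.65% with every library. It was 0.50 without the IOP retina of mouse 3 (0.302), and 0.36 with the block and without mouse 3 (0.527).

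**Figure D3:**
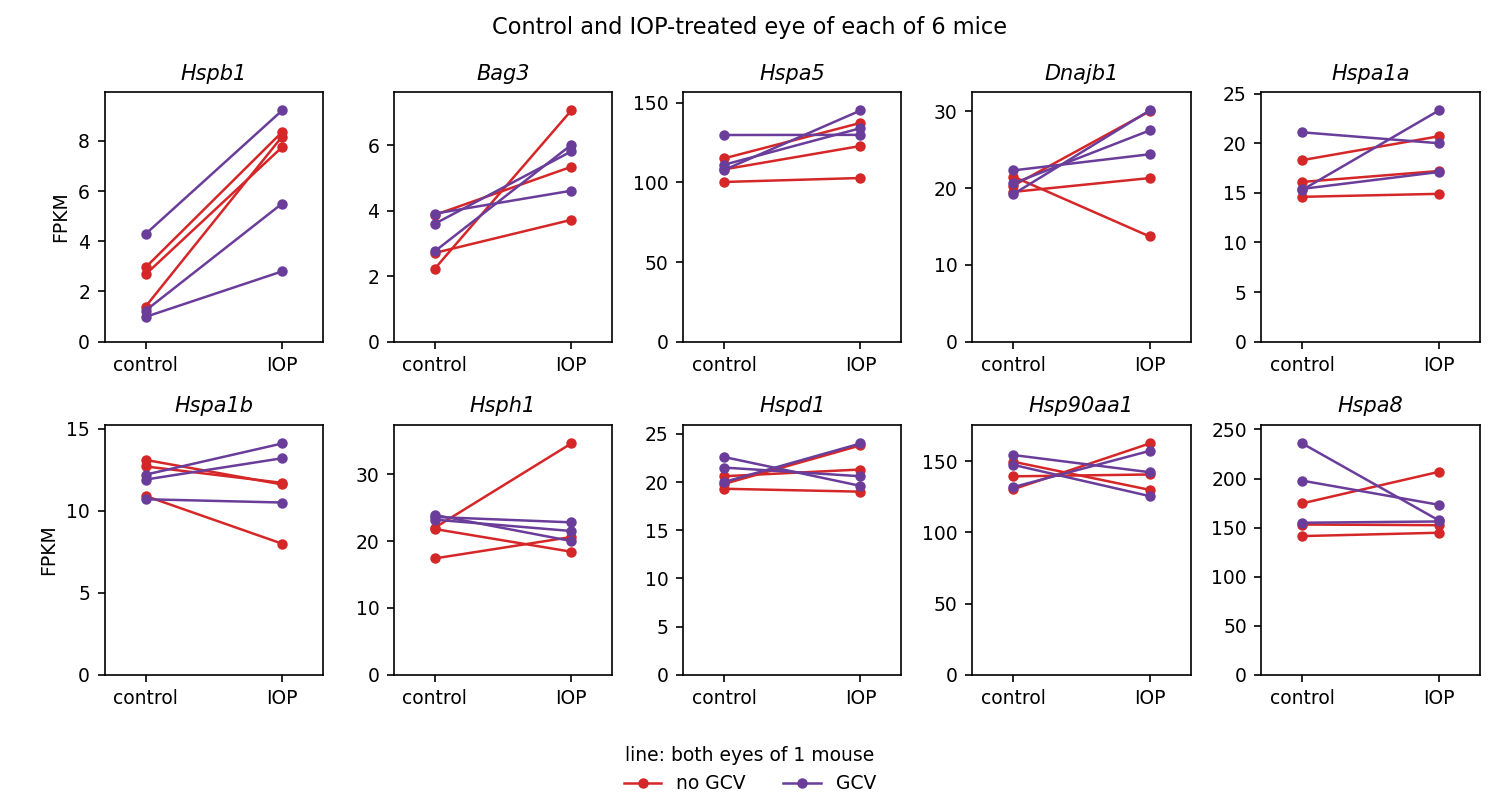
FPKM of the 10 genes in the control and the IOP‐treated eye of each mouse, with 1 line for each mouse, coloured by GCV treatment, on linear axes that start at 0. All 6 lines rise for Hspb1, Bag3 and Hspa5, while those of Hsp90aa1, Hspa8 and Hspd1 rise in 3 mice and fall in 3.

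Hspa5 (BiP), the Hsp70 of the endoplasmic reticulum, was at 108.2, 100.3 and 115 FPKM in the control and at 123, 103 and 137 FPKM in the IOP‐treated retinas of mice 3, 4 and 6. With GCV it was at 129.8, 111 and 108 FPKM in the control and at 129.9, 134 and 145 FPKM in the IOP‐treated retinas of mice 1, 2 and 5. The IOP‐treated eye was the higher in 6 of 6 mice, although by a ratio of 1.0 in mouse 1 and of at most 1.35, in mouse 5. The log2 difference over the mean of both effects was 0.19 (SE 0.09, interval 0.00 to 0.39, limma adjusted p = 0.161), and was not called. Without the IOP retina of mouse 4 it was 0.25 and called (limma adjusted p = 0.0412), in a fit that called 24.5% of all genes, and without that of mouse 3 or of mouse 6 it was 0.19 or 0.15 (0.225 in each). Genes most like Hspa5 in pattern over the 12 libraries were Mrpl17 (r = 0.921), Ppil2 (0.916) and Eef1d (0.910).

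Such one-sided patterns are common in these data. All 6 mice moved in 1 direction for 3 of the 10 members (Hspb1, Bag3 and Hspa5) and for 20.8% of all genes tested. Without GCV the control and IOP values did not overlap for 1 member, Hspb1, against 20.5% of all genes. With GCV they did not overlap for 4 members, with Dnajb1, Hspa5 and Bag3 higher and Hsph1 lower in IOP‐treated retinas, against 29.8% of all genes. None of the members separated all 6 IOP‐treated from all 6 control retinas.

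The paired genes Hspa1a and Hspa1b encode the stress-inducible Hsp70, and lie on chromosome 17 at 34969359 to 34972156 and 34956429 to 34959238 (GRCm38, minus strand). Their coding sequences are the same at 99.43% of 1929 aligned positions, and 58.8% of the 50-base windows of the Hspa1a transcript occur in that of Hspa1b, so reads can be split between them and each value alone is uncertain. Hspa1a was at 16.1, 14.6 and 18.3 FPKM in the control and at 17.2, 14.9 and 20.7 FPKM in the IOP‐treated retinas of mice 3, 4 and 6, and at 21.1, 15.3 and 15.4 FPKM against 20.0, 23.3 and 17.1 FPKM in mice 1, 2 and 5. Hspa1b was at 12.7, 10.9 and 13.1 FPKM against 11.7, 7.99 and 11.6 FPKM in mice 3, 4 and 6, and at 11.9, 12.2 and 10.7 FPKM against 13.2, 14.1 and 10.5 FPKM in mice 1, 2 and 5.

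Hspa1a was higher in the IOP‐treated eye in 5 of 6 mice and Hspa1b in 2 of 6, and control and IOP ranges of both overlapped under each treatment. The log2 difference over the mean of both effects was 0.15 for Hspa1a (limma adjusted p = 0.428) and -0.06 for Hspa1b (limma adjusted p = 0.739). Summed to avoid the split, they came to 28.6 ± 2.96 FPKM in control, 28.0 ± 4.75 in IOP, 28.9 ± 3.71 in control GCV and 32.7 ± 4.91 FPKM in IOP GCV retinas (SD, n = 3 each). The log2 difference of the sum was -0.04 without GCV, 0.17 with GCV and 0.07 over both. A further 19.01% of the exon bases of Hspa1a lie opposite Gm20481, and whether strand was used in counting was not stated. Hspa1a was most like Nelfcd (r = 0.889), Dapk3 (0.863) and Khk (0.854) over the 12 libraries.

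Hspa8, the constitutive Hsp70, ranged from 141 to 175 FPKM in control, 145 to 207 in IOP, 155 to 236 in control GCV and 156 to 173 FPKM in IOP GCV retinas. Its highest values were those of the control eyes of mice 1 and 2 and of the shallow IOP‐treated retina of mouse 6. The log2 difference was -0.08 over the mean of both effects (limma adjusted p = 0.701). None of the 2345 windows of 50 bases of its transcript occur in Hspa1a or Hspa1b.

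Dnajb1, the J-domain partner induced with Hsp70, stood at 20.3, 19.5 and 21.5 FPKM in the control and at 30.0, 21.3 and 13.7 FPKM in the IOP‐treated retinas of mice 3, 4 and 6. In mice 1, 2 and 5, with GCV, it stood at 22.3, 20.6 and 19.2 FPKM in the control and 24.4, 27.5 and 30.1 FPKM in the IOP‐treated retinas. It was higher in the IOP‐treated eye of 5 mice and was at 0.635 times the control value in mouse 6. The log2 difference was 0.20 (interval -0.14 to 0.54, limma adjusted p = 0.426). It was 0.069 without the IOP retina of mouse 3 (limma adjusted p = 0.717) and 0.34 without that of mouse 6 (limma adjusted p = 0.0539).

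Hsph1, an exchange factor of the Hsp110 family, was at 21.8, 17.4 and 22.0 FPKM in the control and at 18.4, 20.6 and 34.6 FPKM in the IOP‐treated retinas of mice 3, 4 and 6. With GCV the values were closer, at 23.9, 23.2 and 23.6 FPKM in the control and 20.0, 21.5 and 22.8 FPKM in the IOP‐treated retinas of mice 1, 2 and 5. The IOP‐treated eye was lower in all 3 mice with GCV and higher in 2 of 3 without. The log2 difference was 0.21 without GCV (limma adjusted p = 0.558), -0.13 with GCV (limma adjusted p = 0.785) and 0.04 over both (interval -0.27 to 0.34). Without the shallow IOP retina of mouse 6 it was -0.058 without GCV and -0.096 over both, so this library set the sign.

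Hsp90aa1, the inducible cytosolic Hsp90, ranged from 126 to 163 FPKM over all 12 retinas, and Hspd1, the mitochondrial Hsp60, from 19.0 to 24.0 FPKM. Each was higher in the IOP‐treated eye of 3 mice and lower in that of the other 3. Their log2 differences over the mean of both effects were 0.01 (interval -0.19 to 0.20) and 0.05 (interval -0.12 to 0.21). With the mouse as a block the intervals were wider, at -0.25 to 0.26 and -0.16 to 0.25. Changes beyond these wider bounds lie outside the intervals of both fits. Hspd1 shares 4.24% of its exon bases with Hspe1, which encodes its co-chaperonin on the opposite strand.

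Across the members as a list, 8 of 10 had a positive log2 difference over the mean of both effects, with a median of 0.10 against 0.01 for all genes tested. In single mice, the number of members higher in the IOP‐treated eye was 7, 7 and 8 of 10 in mice 3, 4 and 6 and 5, 8 and 6 of 10 in mice 1, 2 and 5. The differences of single members ran from -0.08 (Hspa8) to 1.31 (Hspb1).

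GCV was the other variable of the design. The IOP effect did not differ detectably between treatments for any member: the difference of the effects lay between -0.34 (Hspa8 and Hsph1) and 0.37 (Dnajb1) on the log2 scale, with limma adjusted p of 0.997 for each. The interval for Hspb1 was -1.65 to 0.99, and -1.10 to 0.44 with the mouse as a block. Of all genes tested, 0.0% were called in this comparison, and 358 had an unadjusted p under 0.05, with 0 of the members among them.

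Between IOP‐treated retinas, GCV differed from PBS by -0.52 (Hspb1, interval -1.46 to 0.41) to 0.39 (Dnajb1, interval -0.10 to 0.87) on the log2 scale, with limma adjusted p of 0.819 to 1.0. Between control retinas the values ran from -0.19 (Hspb1) to 0.31, with adjusted p of 1.0 for each. In both, 0.0% of all genes were called, with 774 and 295 genes at an unadjusted p under 0.05 and 0 members among them. These comparisons are between mice, and they share their libraries with the IOP comparisons.

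The wider chaperone network was described by 10 lists holding 121 genes besides the members. In either treatment alone limma called 0 of the 121 genes, with 21 (17.4%) at an unadjusted p under 0.05 without GCV and 13 (10.7%) with GCV, against 18.9% and 19.2% of all genes. Over the mean of both effects 4 were called higher and 3 lower, 5.79% against 12.2% of all genes, with a median log2 difference of 0.07 against 0.01. The called genes were spread over 6 of the lists.

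Among 8 further small heat shock and alpha-crystallin genes, the class of Hspb1, 6 had positive and 2 negative differences, with a median of 0.65. The lens crystallin gene Cryaa alone was called (4.68, limma adjusted p = 0.0489). It is itself 1 of the 17 lens genes summed above, and it went from 9.73 ± 7.27 FPKM in control and 1309 ± 2199 in control GCV to 1073 ± 935 in IOP and 2208 ± 721 FPKM in IOP GCV retinas (SD, n = 3 each). Among 11 proteasome and autophagy partners of BAG3, Lamp2, a protein of the lysosomal membrane, rose from 48.7 ± 5.32 to 108.2 ± 54.3 FPKM (SD, n = 6) and by 1.02 on the log2 scale (limma adjusted p = 0.026), in 6 of 6 mice. The other 10 gave no call, and the median of the list was -0.02.

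Among 9 other Hsp70 and Hsp110 genes, 7 had negative differences and 2 were called lower. Hspa12a, a distant member of the Hsp70 family, fell from 38.9 ± 5.35 to 18.8 ± 9.33 FPKM (log2 difference -1.13, limma adjusted p = 0.0303). Hspa4l, an Hsp110 gene like Hsph1, fell from 83.8 ± 3.01 to 69.5 ± 5.62 FPKM (-0.27, limma adjusted p = 0.0221, and 0.0652 with the mouse as a block). Of 16 J-domain genes 1 was called, Dnajc6, which encodes auxilin, a neuronal protein that uncoats clathrin vesicles. It was lower at 33.7 ± 5.37 against 44.5 ± 2.34 FPKM (-0.40, limma adjusted p = 0.034, and 0.0573 with the block). All 3 were lower in 6 of 6 mice, as were the summed markers of ganglion cells and of amacrine cells, whose part in these values was not tested.

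Of 18 genes for Hsp90 proteins and co-chaperones, Ahsa2, an activator of the Hsp90 ATPase, was called higher, at 7.99 ± 2.61 against 4.41 ± 0.517 FPKM (0.69, limma adjusted p = 0.0382, and 0.0758 with the block). Of 12 mitochondrial chaperone and protease genes, Afg3l2, a protease of the inner membrane, was called higher, at 27.9 ± 5.15 against 19.8 ± 1.74 FPKM (0.46, limma adjusted p = 0.0306).

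The remaining 4 lists gave no call, with 2, 1, 0 and 7 genes at an unadjusted limma p under 0.05 in the order given, where 30.3% of all genes had one. They hold 9 genes for heat shock factors and their regulators (median 0.03), 8 for BAG proteins and other exchange factors (0.03), 14 for the TRiC chaperonin and prefoldin (0.07, with 13 of 14 differences positive) and 24 for chaperones and sensors of the endoplasmic reticulum (0.10, with 19 of 24 positive). Among their most abundant genes, Hsbp1, an inhibitor of heat shock factor trimers, was at 211 ± 20.0 FPKM in control and 226 ± 57.2 in IOP‐treated retinas. Pfdn5, which encodes a prefoldin subunit, was at 180.0 ± 15.2 and 185.5 ± 49.4 FPKM and was lower in the IOP‐treated eye of 4 mice and higher in 2. The exchange factor gene Bag1 was at 87.4 ± 6.0 and 108.5 ± 32.1 FPKM, and Calr, which encodes the lectin chaperone calreticulin, at 301 ± 36.4 and 387 ± 212 FPKM (SD, n = 6 each).

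**Figure D4:**
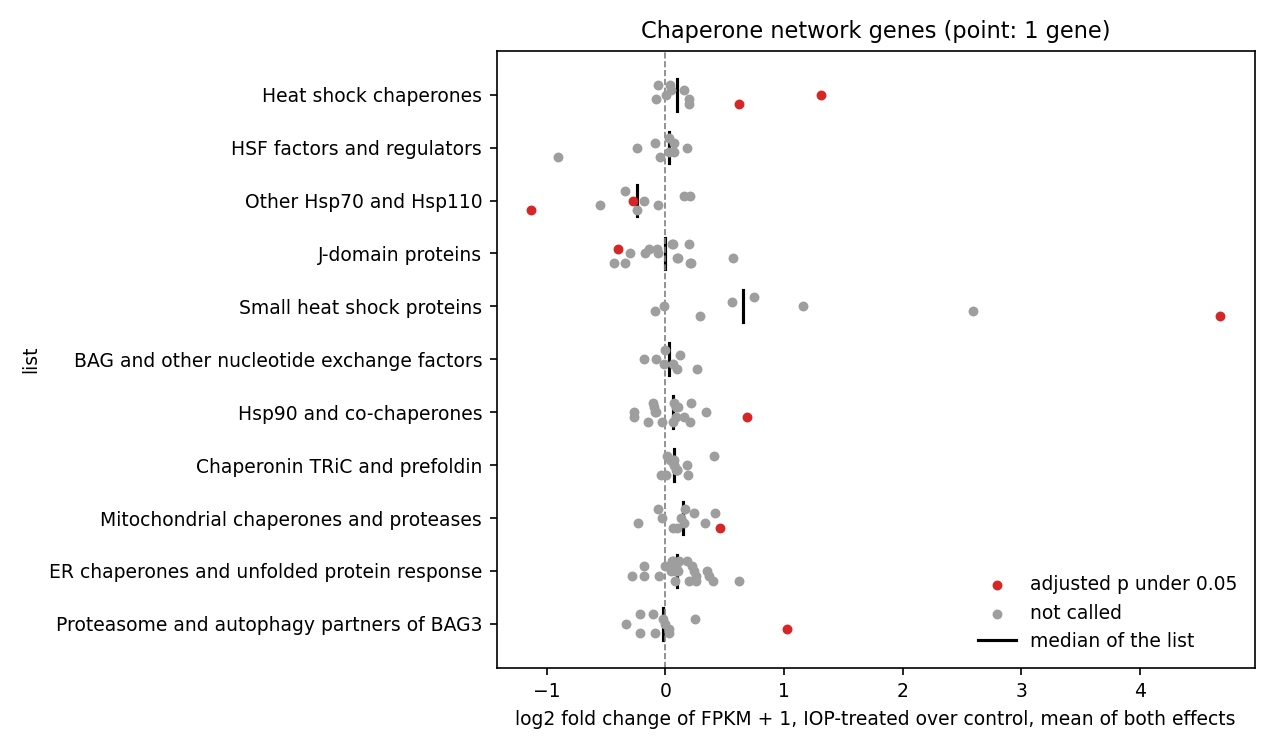
Log2 fold change of FPKM + 1, IOP‐treated over control, as the mean of both effects, for the 10 genes and for 10 lists of the chaperone network, with 1 point for each gene, in red where the adjusted p was under 0.05, and a black line at the median. Hspb1 (1.31) and Bag3 (0.62) are the red points of the top row, and the lens crystallin gene Cryaa (4.68) is the point at the far right.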

How the data were processed

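RNA was measured in 12 mouse retinas, both eyes of 6 p16‐3MR mice, and samples were grouped by GEO's labels. The methods state TruSeq stranded mRNA libraries and that the authors used HOMER to count reads over RefSeq exons. The submitters' processing notes name TopHat2, Bowtie2, Cufflinks, Cuffdiff and mm10. The deposited values are FPKM, a unit inferred from the values, and which of these tools made them was not given in the sources used here. The fragments per library were estimated from the steps between small values in 1904 genes with 1 transcript, and 78.7% to 85.0% of these values lay within 0.15 of a whole number of fragments. This depth limits the precision of low values; no interval was computed for a value in 1 library.

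Values were tested with limma 3.58.1 in R 4.3.3 on log2(FPKM + 1), with 4 group means, a variance trend and Benjamini-Hochberg adjustment over 18509 genes at 0.05. The procedure was tested on simulated data with independent noise in each library and no pairing of eyes. There, only genes at higher levels than Hspb1 and Bag3 were changed, and only in IOP without GCV. The simulation therefore does not bear on the calls of these members over the mean of both effects. The pseudocount was 1. The comparisons were IOP against control without GCV, with GCV and as their mean, the difference of both, and GCV against PBS in IOP‐treated and in control retinas. Alternatives were the mouse as a block, a pseudocount of 0.1, a minimum of 1 FPKM in 3 libraries, median-ratio scaling, no variance trend, only the groups compared, and leaving out each library. The block with 1 mouse left out was added after the data were seen. Equal numbers mark both eyes of 1 mouse in the labels, so the numbers pair the samples. Deviations from the group means correlated within mice at 0.207, 0.388, 0.1, -0.117, 0.132 and 0.166 (mice 3, 4, 6, 1, 2 and 5) over 12910 genes. The members and lists were chosen with earlier results of these data known, and are not independent of them. Genes named besides the members are the called genes of each list, or the most abundant where none was called, and the 3 most like Hspb1, Hspa1a and Hspa5 in pattern.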

Additional observations from a re-analysis of the deposited data

How the results depend on the processing

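Among alternatives other than leaving samples out, the number of members called changed in 2 cases. Without GCV it was 1 (Hspb1, limma adjusted p = 0.043) when only the groups compared entered the fit, which called 1.8% of all genes, and over the mean of both effects it was 1 with the mouse as a replicate block, where Bag3 was lost (0.0826) and 7.3% of all genes were called against 12.2%. The block changed no other member's call. When samples were left out, the number called lay between 0 and 1 without GCV and between 0 and 3 over the mean of both effects. The latter was 0 without the control retina of mouse 3 or 4 or the control GCV retina of mouse 2 or 5, and 3 without the IOP retina of mouse 4, where Hspa5 was also called (0.25, limma adjusted p = 0.0412) and 24.5% of all genes were. Without any other library 4.51% to 11.8% of all genes were called over the mean of both effects. Hspb1 and Bag3 kept their direction in the 3 comparisons of IOP‐treated with control retinas under every alternative run. Reversals of sign came only from leaving samples out, in members not called in the comparison concerned, and the cause was not tested.

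For the IOP effect without GCV, the log2 differences then ranged from -0.25 to 0.33 for Dnajb1, -0.10 to 0.16 for Hsp90aa1, -0.023 to 0.20 for Hspa1a, -0.068 to 0.19 for Hspa8 and -0.058 to 0.43 for Hsph1. In the IOP effect with GCV, the log2 differences then ranged from -0.17 to 0.069 for Hsp90aa1 and -0.13 to 0.094 for Hspd1. For the mean of both IOP effects, the log2 differences then ranged from -0.066 to 0.067 for Hsp90aa1, -0.11 to 0.017 for Hspa1b, -0.16 to 0.000 for Hspa8, -0.017 to 0.094 for Hspd1 and -0.10 to 0.15 for Hsph1. In the difference between the IOP effects, the log2 differences then ranged from -0.33 to 0.19 for Bag3, -0.21 to 0.064 for Hsp90aa1, -0.059 to 0.27 for Hspa1a, -0.036 to 0.19 for Hspa5, -0.68 to 0.11 for Hspb1 and -0.22 to 0.001 for Hspd1. For the GCV comparison in IOP‐treated retinas, the log2 differences then ranged from -0.15 to 0.24 for Bag3, -0.10 to 0.062 for Hsp90aa1, -0.13 to 0.12 for Hspa8, -0.082 to 0.076 for Hspd1 and -0.31 to 0.13 for Hsph1. In the GCV comparison in control retinas, the log2 differences then ranged from -0.039 to 0.067 for Dnajb1, -0.002 to 0.11 for Hsp90aa1, -0.083 to 0.14 for Hspa1a and -0.63 to 0.073 for Hspb1.

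Values of Hspb1 rest on few fragments, 5.1 to 56.8 by the estimate. The 95% interval of its difference without GCV was 0.54 to 2.41 on the log2 scale, and 0.93 to 2.02 with the mouse as a replicate block.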
